A study of Mus musculus with 6 samples.

Results

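The genes described here are the Notch receptors, their ligands and the fringe enzymes that modify the receptors, in mouse neurospheres with and without a conditional deletion of Ash2l. They are 10 genes chosen by name from the 54532 genes of the deposited table: the receptors Notch1, Notch2 and Notch3, the ligands Dll1, Dll3, Jag1 and Jag2, and the fringes Lfng, Mfng and Rfng. All 10 were found, and all 10 were among the 16606 genes with enough reads to be tested. Primary neurospheres are floating balls of cultured neural progenitors, and those sequenced here were started from C57BL/6 embryos at E14.5 and kept for 6 days with EGF and bFGF. The labels give the dorsal cortex as their source in one field and the lateral ventricles' lateral walls in another, so how much of the tissue lay where the Cre is active cannot be told. The 3 wild-type libraries (WT 3, WT 6 and WT 7) were compared with 3 libraries from Ash2l cKO embryos (KO 1, KO 2 and KO 3), in which the D6-Cre transgene, active in the dorsal forebrain, deletes Ash2l, a shared subunit of the COMPASS complexes that methylate histone H3. The labels do not say whether the WT embryos carried the Cre transgene, nor that the libraries of a group are separate embryos or cultures. The p-values therefore reflect library-to-library spread, part of which may be technical. Values of single libraries are listed below in the order WT 3, WT 6, WT 7 and KO 1, KO 2, KO 3.

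Notch signalling passes between touching cells. A Delta or Jagged ligand on one cell binds a Notch receptor on its neighbour, the receptor is cut first by an ADAM protease and then by gamma-secretase, and its freed intracellular domain enters the nucleus, binds RBPJ and switches on genes of the Hes and Hey families. In the embryonic cortex, newborn neurons and intermediate progenitors carry Dll1 and keep neighbouring radial glia, the stem cells of the cortex, from differentiating. Fringe enzymes add N-acetylglucosamine to O-fucose on the receptor's EGF repeats, which in general favours Delta over Jagged ligands.

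Each library held between 16764480 and 21983659 counted reads. A gene with 3 reads would measure 0.142 to 0.173 CPM (counts relative to library size, scaled by TMM factors), far below the level of any of the 10 genes. Mean Ash2l was 113 ± 3.55 CPM for WT against 95.9 ± 8.41 CPM for KO (SD, 3 libraries each), which missed the threshold (adjusted p = 0.119, edgeR). Every KO library (86.3, 99.3 and 102 CPM) nevertheless lay below every WT library (116, 113 and 109 CPM). Reads were counted per gene, so those from exons outside the deleted stretch and those from undeleted cells cannot be separated. How completely Ash2l was deleted was not tested. WT 3 stood nearest to KO on the first principal component, at -25.5 against -81.7 and -85.7 for the other WT libraries and 53.5 to 76.8 for KO. All 10 radial glia markers were tested, among them the Notch target Hes5, which fell. In all, 5 fell and 1 rose, where 15.5% of all tested genes fell and 13.5% rose. Their summed levels were 6400 to 9470 CPM in WT and 5560 to 8440 CPM in KO. None of these markers was at 0 in all libraries, and their part in the changes of the Notch genes was not tested. In bulk RNA, fewer cells of a type and less RNA per cell cannot be told apart.

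Of the 10 genes, 6 fell in KO, 1 rose and 3 did not pass an adjusted p of 0.05 (edgeR quasi-likelihood test, Benjamini-Hochberg over all tested genes). All 3 receptors fell, as did both Delta ligands and Mfng. Jag1 rose, and Jag2, Lfng and Rfng did not pass. The share called was 70%, where 29% of all tested genes were called, 15.5% lower and 13.5% higher. In 7 of the 10, the same genes that were called, KO and WT libraries did not overlap, against 48.6% of all tested genes (25.2% lower and 23.5% higher in KO). The median log2 fold change of the 10 was -0.80, and that of all tested genes was 0.00186. Only Dll1 and Mfng were called whichever library was left out. With WT 6, WT 7 or KO 2 left out these were the only called genes of the 10, while the share called among all tested genes fell to 12.8%, 14.4% and 14.6%.

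**Figure D1:**
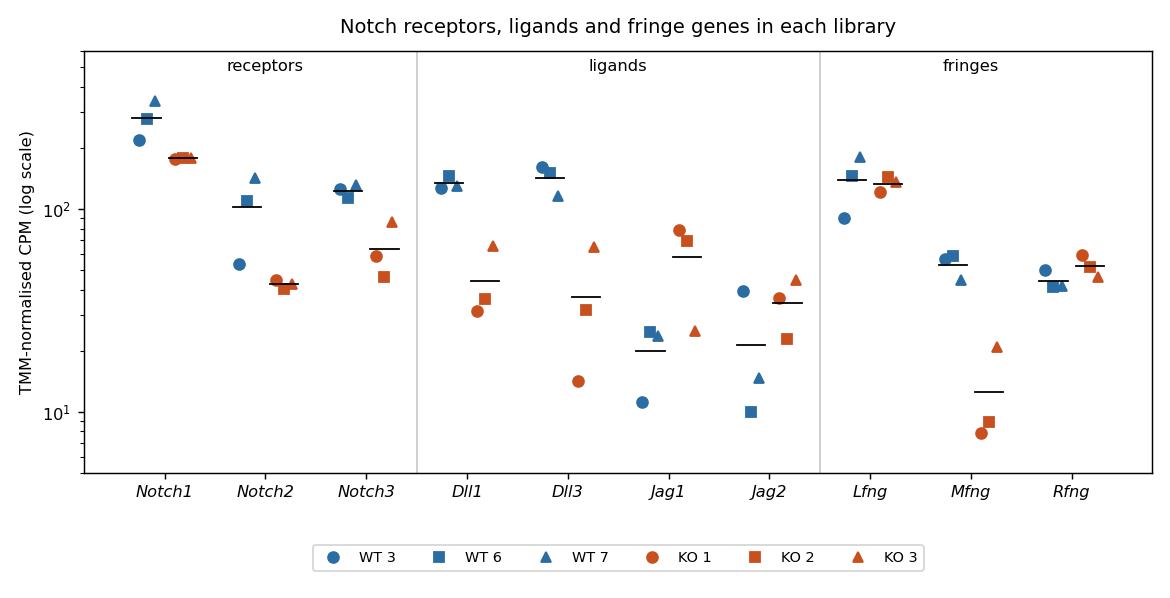
TMM-normalised CPM on a log axis for each gene in the 3 WT (blue) and 3 KO (orange) libraries, with a black line at each group mean. Dll1 and Mfng lie at 127 to 146 and 44.4 to 58.5 CPM in WT and at 31.2 to 65.9 and 7.84 to 20.7 CPM in KO, and the Lfng libraries of both groups overlap.

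Notch1 (ENSMUSG00000026923, chromosome 2 from 26457903 to 26516663 on mm10), the main receptor of neural stem cells, measured 219, 279 and 343 CPM in the WT libraries. In the KO libraries it measured 177, 178 and 179 CPM. The KO libraries were almost equal to one another and all below the lowest WT library, WT 3. KO differed from WT by a log2 fold change of -0.65 (SE 0.17, adjusted p = 0.0271), which left 63.5% of the WT level. Notch2 (ENSMUSG00000027878, chromosome 3 from 98013527 to 98150361), which is also expressed by radial glia and astrocytes, measured 53.4, 109 and 143 CPM in WT. Its KO libraries were at 44.8, 40.2 and 42.7 CPM. WT 3 held less than the other WT libraries by a wide margin and stood just above KO 1. It fell by 1.26 on the log2 scale (SE 0.32, adjusted p = 0.028). Both calls ended when WT 6, WT 7 or any of the KO libraries was left out, with adjusted p of 0.0641 to 0.0849 for Notch1 and 0.0688 to 0.0939 for Notch2, and held without WT 3, at -0.81 and -1.57. On log2(FPKM + 0.1) neither passed (adjusted p = 0.0554 and 0.0689, limma), and Notch2 did not pass on log2(FPKM + 1) either (adjusted p = 0.0539).

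The astrocyte markers followed the same order of libraries as Notch2 within WT, with a summed level of 2143 CPM in WT 3 against 7094 and 7271 CPM in WT 6 and WT 7, and 580 to 888 CPM in KO. Of the 8 markers 7 fell, and none was at 0 in all libraries. Their part in the fall of Notch1 and Notch2 was not tested.

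Notch3 (ENSMUSG00000038146, chromosome 17 from 32120820 to 32166880), a receptor of radial glia and of the mural cells around vessels, measured 125, 113 and 131 CPM in WT. In KO it measured 58.7, 46.0 and 86.4 CPM, and KO 3 was the highest of the KO libraries but still below all WT libraries. Notch3 fell by 0.95 on the log2 scale (SE 0.22, adjusted p = 0.0211). WT 3 was not apart from the other WT libraries for this receptor. The call ended without WT 6, WT 7, KO 1 or KO 2, with adjusted p of 0.0531 to 0.0717, and the change was -1.22 without KO 3. Of 8 mural markers, 5 of them tested, 1 rose and none fell, 4 were under 1 CPM in every library (Kcnj8, Abcc9, Tagln and Myh11), and the summed level was 59.6 to 107 CPM in WT and 81.4 to 147 CPM in KO. The mural list includes Cspg4, which is also used below as a marker of oligodendrocyte progenitors.

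Dll1 (ENSMUSG00000014773, chromosome 17 from 15367354 to 15376872), the Delta ligand that sends the signal from differentiating cells, measured 127, 146 and 129 CPM in WT. In KO it measured 31.2, 35.8 and 65.9 CPM. The lowest WT library held far more than the highest KO library, KO 3. Dll1 had a log2 fold change of -1.59 (SE 0.28, adjusted p = 0.00762), 3.02-fold lower, and the estimate ran from -1.98 without KO 3 to -1.37 without KO 1. An antisense gene, A930024N18Rik, overlaps Dll1 and held 2.38% of the number of its reads, and whether the counting used strand is not given in the sources used here.

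Dll3 (ENSMUSG00000003436, chromosome 7 from 28293553 to 28302238), a divergent Delta protein that acts inside the signalling cell and does not activate receptors on neighbours, measured 161, 150 and 116 CPM in WT. The KO libraries were far apart, at 14.2, 31.9 and 64.8 CPM, and all lay below WT. Dll3 was 3.85-fold lower in KO (log2 fold change -1.94, SE 0.49, adjusted p = 0.0267). The call ended without WT 6, WT 7 or KO 2 (adjusted p = 0.0759, 0.0534 and 0.0969), and the change was -2.61 without KO 3 and -1.54 without KO 1.

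KO 3 held the most Dll1 and the most Dll3 among the KO libraries. Markers of intermediate progenitors and neuroblasts, cells that carry Delta ligands, had the same high library, with a summed level of 379 CPM in KO 3 against 270 and 280 CPM in KO 1 and KO 2, and 461 to 574 CPM in WT. Of 8 of these markers 7 were tested, 3 fell and 1 rose, and Neurog1 was under 1 CPM in every library. Of 6 oligodendrocyte progenitor markers 3 fell, with summed levels of 2300 to 2730 CPM in WT. Their sums were 1099, 2088 and 1754 CPM in KO 1, KO 2 and KO 3, with KO 2 the highest. No marker of these 2 lists was at 0 in all libraries, and their part in the fall of Dll1 and Dll3 was not tested.

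Jag1 (ENSMUSG00000027276, chromosome 2 from 137081456 to 137116644), a Jagged ligand known for its part in vessel and inner ear development, was the only one of the 10 genes that rose. It measured 11.2, 24.8 and 23.5 CPM in WT. The KO values were 78.4, 69.3 and 25.1 CPM. KO 1 and KO 2 were well above WT, whereas KO 3, at 25.1 CPM, was only just above WT 6 at 24.8 CPM. It rose 2.90-fold (log2 fold change 1.54, SE 0.47), with an adjusted p of 0.0484, near the threshold. The call ended without WT 3 (1.25, adjusted p = 0.0591), WT 6 (1.72, 0.0945), WT 7 (1.67, 0.0982), KO 1 (1.29, 0.134) or KO 2 (1.38, 0.132), and on both FPKM scales (adjusted p = 0.0641 and 0.0845). Without KO 3 it was 1.91. Meningeal fibroblast markers, 2 of 6 of which rose, summed to 386 CPM in KO 1, 26.9 CPM in KO 2 and 59.4 CPM in KO 3, against 19.7 to 29.9 CPM in WT. Mural markers summed to 81.4, 128 and 147 CPM in KO 1, KO 2 and KO 3, against 59.6 to 107 CPM in WT. This sum includes Cspg4, also on the oligodendrocyte progenitor list, and need not come from mural cells alone. Endothelial markers summed to at most 6.98 CPM in any library, and 6 of 8 were under 1 CPM throughout. The part of these markers in the rise of Jag1 was not tested.

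Jag2 (ENSMUSG00000002799, chromosome 12 from 112907819 to 112929776), the second Jagged ligand, measured 39.5, 9.94 and 14.7 CPM in WT. The KO values were 36.1, 22.8 and 44.5 CPM. WT 3 lay inside the KO range and the other WT libraries lay below it. Its log2 fold change of 0.69 (SE 0.51) did not pass (adjusted p = 0.331). Without WT 3 it was 1.48 and passed (adjusted p = 0.00986), as it did with limma-voom and quality weights (1.30, adjusted p = 0.0171), a fit that called 48.5% of all tested genes. Neuronal markers had the same high WT library, at a summed 2787 CPM in WT 3 against 1773 and 1560 CPM in WT 6 and WT 7, and 2750 to 4030 CPM in KO. Within KO the neuronal sum was highest in KO 1 (4027, 2746 and 3074 CPM), whereas Jag2 was highest in KO 3. Of 10 neuronal markers 1 rose, where 13.5% of all tested genes did. None of these markers was at 0 in all libraries, and their part was not tested.

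**Figure D2:**
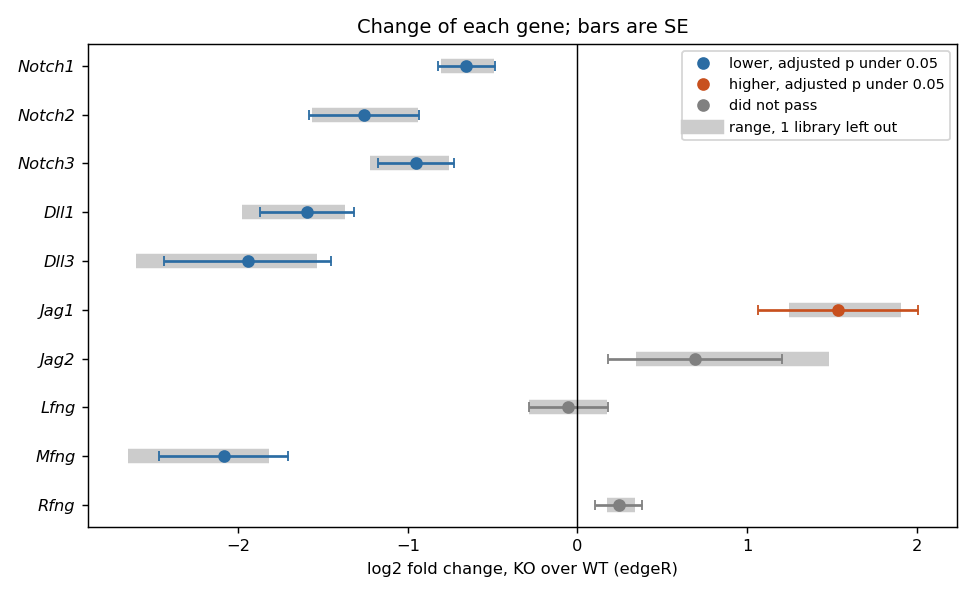
Log2 fold change of KO over WT for each gene from the edgeR fit, with the SE as an error bar, coloured by the call, and a grey band for the range over fits that each left out 1 library. Mfng (-2.09), Dll3 (-1.94) and Dll1 (-1.59) lie farthest below 0, Jag1 (1.54) lies above it, and only the band of Lfng crosses 0.

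Mfng (ENSMUSG00000018169, chromosome 15 from 78755882 to 78773475), manic fringe, fell most of the 10 genes. It measured 56.5, 58.5 and 44.4 CPM in WT. It dropped to 7.84, 8.85 and 20.7 CPM in KO, and the highest KO library, KO 3, was under the lowest WT library, WT 7. Its log2 fold change was -2.09 (SE 0.38, adjusted p = 0.00878), which left 23.5% of the WT level, and it ran from -2.65 without KO 3 to -1.82 without KO 1. Lfng (ENSMUSG00000029570, chromosome 5 from 140607320 to 140615545), lunatic fringe, measured 90.7, 145 and 180 CPM in WT. In KO it was at 122, 143 and 136 CPM. All KO libraries lay within the WT range, and the difference of -0.05 (SE 0.23) did not pass (adjusted p = 0.879). Its sign turned under library totals, under both FPKM scales and without WT 7 or KO 1. Rfng (ENSMUSG00000025158, chromosome 11 from 120780746 to 120784207), radical fringe, measured 49.98, 41.2 and 41.5 CPM in WT, with KO at 59.0, 51.8 and 46.3 CPM. Only WT 3 overlapped the KO range, and the log2 fold change of 0.24 (SE 0.14) did not pass (adjusted p = 0.215), except with limma-voom (adjusted p = 0.0417). The fringe genes thus ranged from the largest fall of the 10 genes to a change that did not pass, though differences between genes were not tested.

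Levels of different genes were compared per gene length, with the deposited FPKM (reads relative to gene length and library size). In WT the order of mean FPKM was Lfng (53.7), Dll3 (49.0), Dll1 (31.0), Notch1 (19.2), Mfng (18.3), Rfng (17.4), Notch3 (15.0), Notch2 (9.15), Jag1 (3.30) and Jag2 (3.05). The ranges of Lfng and Dll3 overlapped, as did those of Notch1 and Mfng, of Mfng and Rfng, and of Jag1 and Jag2, while the other neighbours were apart. In KO the order was Lfng (54.3), Rfng (21.5), Dll3 (13.1), Notch1 (12.7), Dll1 (10.7), Jag1 (10.1), Notch3 (8.06), Jag2 (5.04), Mfng (4.46) and Notch2 (4.03). Lfng was apart from Rfng there, and every later pair of neighbours overlapped. Mfng thus went from the fifth place to the ninth, and Rfng from the sixth to the second.

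The summed FPKM of the 3 receptors was 36.4, 42.0 and 51.5 in WT and 24.7, 22.4 and 27.4 in KO, without overlap. Notch1 made up 42.8% to 44.9% of that sum in WT and 46.1% to 57.0% in KO. The shares of Notch2 and Notch3 overlapped between the groups. In WT 3 the sum held 13.8% Notch2 and 43.4% Notch3, whereas WT 6 and WT 7 held 23.1% and 24.7% Notch2.

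Summed FPKM of the 4 ligands was 95.6, 89.2 and 74.6 in WT and 32.1, 35.4 and 49.4 in KO. Jag1 and Jag2 together are low in WT, where Jag1 made up 2.03% to 5.19% of the sum and Jag2 1.54% to 6.02%. In KO Jag1 made up 43.4%, 34.1% and 8.77%, and Jag2 16.7%, 9.41% and 13.01%. The ratio of Delta to Jagged FPKM was 11.4, 15.4 and 11.6 in WT and 0.664, 1.30 and 3.59 in KO. In KO 1 alone the Jagged genes exceeded the Delta genes. These ratios are within a library and do not depend on its scaling, and their difference between the groups was not tested.

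Among the fringes the summed FPKM overlapped between the groups, at 77.3 to 99.9 in WT and 77.7 to 82.4 in KO. The share of Mfng was 26.1%, 21.7% and 15.0% in WT and 3.68%, 3.85% and 9.12% in KO. Lfng stood at 1.82, 2.81 and 4.58 times Mfng in WT and at 17.6, 18.3 and 7.41 times in KO.

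**Figure D3:**
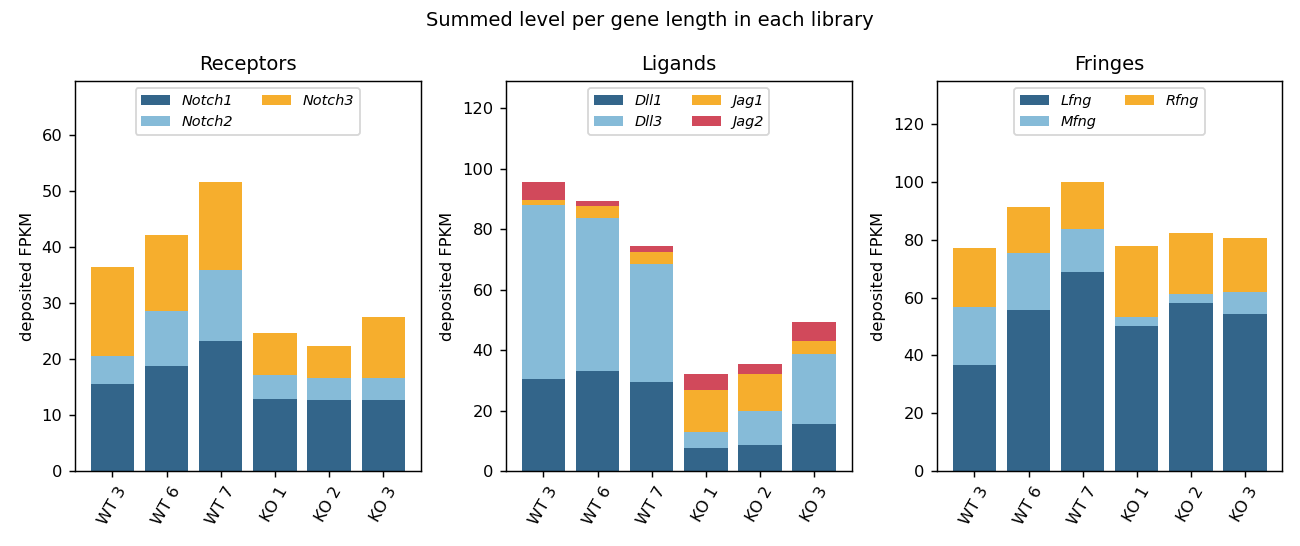
Deposited FPKM stacked by gene for the receptors, the ligands and the fringes, with 1 bar per library and axes that start at 0. The ligand bars fall from 74.6 to 95.6 in WT to 32.1 to 49.4 in KO with a larger Jag1 and Jag2 part, and the fringe bars lose Mfng while Lfng stays the largest part.

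The sequence before the start of transcription is shown for a ligand and a receptor that fell and for a fringe that did not pass, to set side by side what short motifs they hold. Promoter windows of 250 bases before a RefSeq start (GRCm38.p6) matched 9 of the 10 genes, all but Mfng. There were 10 windows in all, since Dll1 has 2 starts. They were searched on both strands for CAGCTG and CAGATG, E-boxes of the kind that proneural factors bind, for TGGGAA, the core of the RBPJ site, and for CTTTGA, the core of the TCF/LEF site. CAGCTG is its own reverse complement. Of the 10 windows 4 held CAGCTG, those of Dll3, Jag1, Lfng and the upstream start of Dll1. Among all 32817 windows 13.01% held CAGCTG. These 4 include genes that fell, rose and did not pass. The windows of Dll3, Jag2, Notch1 and the other Dll1 start lie wholly within the annotated gene, as does the CAGCTG of Jag1. TGGGAA was found in 1 window, that of Lfng, and in 21.6% of all windows. CAGATG and CTTTGA were found in 0 of the 10 windows, and in 14.46% and 13.8% of all windows. The 10 windows held from 52% (Dll3) to 87.2% (Jag2) G or C bases, against a median of 52.4% among all windows. The shares of windows with a motif were not adjusted for this. The printed runs, 5′ to 3′ on the strand of the gene, leave out bases that lie in exons of the same gene, and capitals mark the motifs.
Dll1 (chr17:15376933-15377182, minus strand): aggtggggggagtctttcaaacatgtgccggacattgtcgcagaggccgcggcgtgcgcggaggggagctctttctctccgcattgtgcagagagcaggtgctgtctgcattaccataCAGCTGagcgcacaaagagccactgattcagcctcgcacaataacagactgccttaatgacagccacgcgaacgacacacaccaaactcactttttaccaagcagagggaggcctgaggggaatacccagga
Notch3 (chr17:32166891-32167140, minus strand): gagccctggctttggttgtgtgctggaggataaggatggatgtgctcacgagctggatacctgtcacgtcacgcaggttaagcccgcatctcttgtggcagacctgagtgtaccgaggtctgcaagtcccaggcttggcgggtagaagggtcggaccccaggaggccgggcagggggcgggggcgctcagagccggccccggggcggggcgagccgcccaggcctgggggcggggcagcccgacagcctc
Lfng (chr5:140607091-140607319, plus strand): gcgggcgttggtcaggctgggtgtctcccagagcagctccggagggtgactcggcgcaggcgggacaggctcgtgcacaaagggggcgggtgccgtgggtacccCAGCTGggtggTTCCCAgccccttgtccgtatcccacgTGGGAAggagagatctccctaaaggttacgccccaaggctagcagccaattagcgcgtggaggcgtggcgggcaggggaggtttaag
In Dll1 the CAGCTG begins 132 bases before the upstream start, and the window of the other start, which overlaps an exon of the gene, holds none of the 4 motifs. In Lfng a CAGCTG begins 146 bases before the start and is followed by a pair of TGGGAA matches in opposite directions, which begin 135 and 108 bases before it. The printed bases of Notch3 hold none of the 4 motifs. A match describes letters only.

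Across the 6 libraries the log2 CPM of the genes that fell followed a pair of patterns, given as a description, since the points share libraries and mostly reflect the 2 groups. Dll1 and Mfng had a Pearson r of 0.996, and Dll1 and Dll3 of 0.969, with KO 3 the highest KO library for all 3. Notch1 and Notch2 had r = 0.986, with low values in WT 3 and level values in KO. Notch3 lay nearer to Dll1 and Mfng (0.952 and 0.951) than to Notch1 and Notch2 (0.772 and 0.722). The patterns were not fully apart, with r = 0.807 for Notch1 and Dll1. The coding genes most like each called gene were picked by Pearson r among 12452 genes of at least 2 CPM. They were Tmem50a, Pik3ip1 and Txndc16 for Dll1 (r of 0.998 to 0.999), Slc22a17, Pdcd4 and Stard3 for Mfng (0.997 to 0.998), and Gpr17, Ptov1 and Cope for Dll3 (0.994 to 0.996). For Notch1 they were Tbp, Spg11 and F3 (0.996 to 0.997), and for Notch2 Dennd4c, Lrp6 and Sgms1 (0.997 to 0.999). For Notch3 they were Prom1, Uvssa and Ppp1r1a (0.996 to 0.998), and for Jag1 Heatr1, Vangl1 and Mad1l1 (0.996 to 0.998). Pearson r does not weigh the size of a change. Tbp, Spg11, Cope and all those named for Notch2 and Jag1 did not pass (adjusted p of 0.0795 to 0.19, edgeR). Gpr17, a receptor of oligodendrocyte precursors, measured 708, 525 and 309 CPM in WT. It was at 4.09, 13.7 and 74.2 CPM in KO, the same order of libraries as Dll3. Gpr17 is itself among the 6 oligodendrocyte progenitor markers. Of these markers 3 fell, and among the KO libraries their summed level was highest in KO 2, not KO 3. Prom1, a surface protein of neural stem cells, had a log2 fold change of -1.01 (SE 0.25), close to that of Notch3 itself.

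Of 52 other genes of the pathway, all tested, 11 fell and 6 rose, 32.7% against 29% of all tested genes, and their median log2 fold change was -0.24. Among the target genes that the pathway switches on, 3 of 6 fell, where 15.5% of all tested genes did. Hes5 stood at 171, 189 and 117 CPM in WT, and its KO libraries were at 10.6, 21.1 and 29.1 CPM (log2 fold change -2.97, SE 0.38). Hey1 stood at 88.9, 122 and 120 CPM in WT, against 24.4, 29.5 and 43.8 CPM in KO (-1.76, SE 0.24). Hey2 fell by 1.10 (SE 0.30) from 5.76 to 2.68 CPM. For Hes5 and Hey1 every KO library lay far below every WT library, and both were called whichever library was left out. Hes1 did not pass and had the opposite sign, with WT at 8.41, 13.8 and 17.5 CPM and KO at 13.7, 26.6 and 29.7 CPM (0.82, SE 0.36, adjusted p = 0.128), nor did Nrarp (-0.66, SE 0.30, adjusted p = 0.141) or Heyl (0.26, SE 0.86, adjusted p = 0.834).

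Of 10 genes of receptor cleavage 3 fell and none rose, and the share called, 30%, was near the 29% of all tested genes. Furin, which cleaves the receptor in the Golgi, fell by 0.91 (SE 0.15) and was called whichever library was left out. Psen2 and Ncstn, subunits of gamma-secretase, fell by 0.83 (SE 0.18) and 0.34 (SE 0.09). The call of Ncstn ended under 9 of 14 alternatives, among them DESeq2 (adjusted p = 0.082), no expression filter (adjusted p = 0.116) and both FPKM scales (adjusted p = 0.0746 and 0.0897). The proteases Adam10 and Adam17 did not pass (0.12, SE 0.16, and -0.08, SE 0.12).

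Of 4 genes of ligand ubiquitination, which makes ligands be taken up and pull on the receptor, 2 rose, where 13.5% of all tested genes did. Neurl1b measured 19.6, 6.58 and 6.25 CPM in WT, against 60.6, 54.4 and 61.2 CPM in KO (2.45, SE 0.45, adjusted p = 0.00894), and its change was 3.19 without WT 3. Neurl1a went from 3.93 to 12.9 CPM (1.72, SE 0.38, adjusted p = 0.017). For both, WT 3 was the highest WT library and the groups did not overlap. Mib1, the ligase used by most ligand-sending cells, was at 203 and 161 CPM and did not pass (-0.33, SE 0.13, adjusted p = 0.0947).

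Of 6 genes of receptor glycosylation 3 rose and 1 fell, where 13.5% of all tested genes rose and 15.5% fell. Poglut1, which adds O-glucose, fell by 0.55 (SE 0.11), and the xylosyltransferases Xxylt1 (0.69, SE 0.17), Gxylt1 (0.51, SE 0.15) and Gxylt2 (2.00, SE 0.54) rose, Gxylt2 from only 1.21 CPM. Pofut1, which adds the O-fucose that fringes extend, did not pass (-0.11, SE 0.11, adjusted p = 0.451). Of 8 genes of the nuclear complex 3 fell (37.5% called, against 29% of all tested genes), the coactivator Maml1 (-0.50, SE 0.13) and the corepressors Spen (-0.55, SE 0.14) and Cir1 (-0.76, SE 0.17), and Rbpj itself did not pass (-0.28, SE 0.11, adjusted p = 0.089). Of 9 genes of receptor trafficking 2 were called (22.2%). Dtx3 fell by 0.74 (SE 0.16) and Fbxw7, a ubiquitin ligase subunit that ends the life of the intracellular domain, rose by 0.64 (SE 0.16). Numb and Numbl, inhibitors of the receptor, did not pass (adjusted p = 0.0658 and 0.157). None of the 9 other receptors and ligands passed. The endothelial receptor Notch4 and ligand Dll4 were low, with WT means of 2.64 and 5.82 CPM and KO means of 2.09 and 3.53 CPM.

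**Figure D4:**
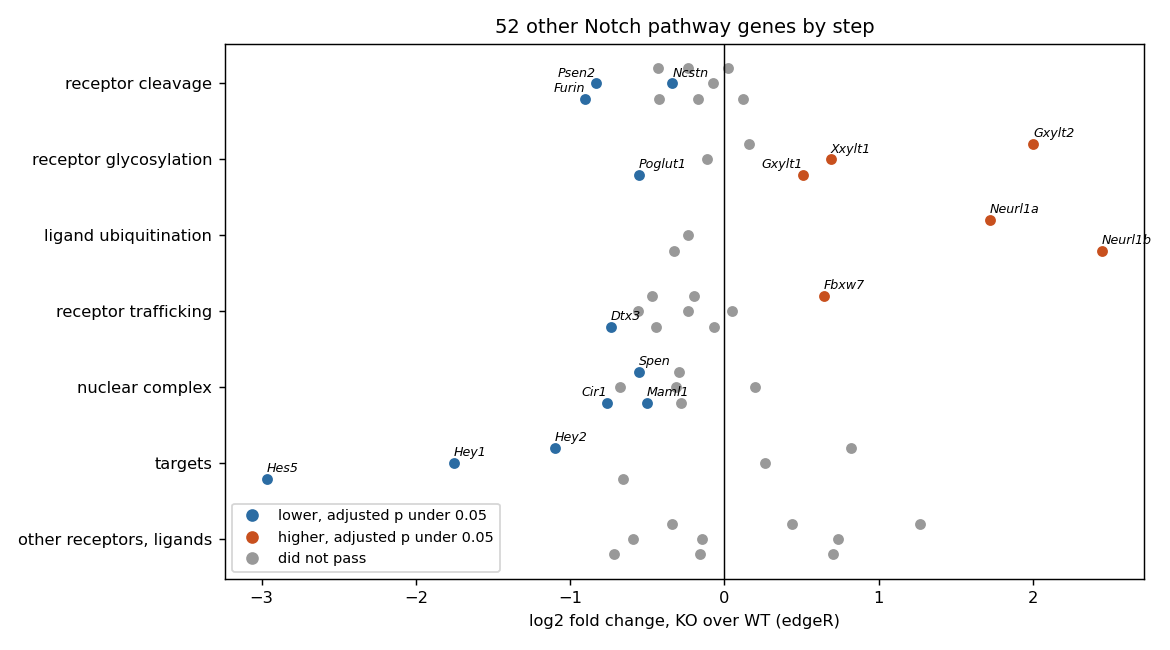
Log2 fold change of KO over WT (edgeR) for the 52 other pathway genes, grouped by step, with genes past an adjusted p of 0.05 coloured and named. Hes5 (-2.97) and Hey1 (-1.76) lie farthest to the left, Neurl1b (2.45) and Gxylt2 (2.00) farthest to the right, and most genes are grey.

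Of the 17 called genes among these 52, Furin, Neurl1b, Hes5 and Hey1 were called in every fit that left out 1 library, and the other 13 lost the call in at least 1 such fit. Gxylt1 and Maml1 also missed the threshold without an expression filter (adjusted p = 0.0533 and 0.0587), and Maml1 and Spen on log2(FPKM + 0.1) (adjusted p = 0.0516 and 0.0593). Proliferation markers rose in KO at the same time, 8 of 8 cycling markers, with summed levels of 187 to 348 CPM in WT and 1690 to 2210 CPM in KO, and 7 of 8 oligodendrocyte markers fell, from 1960 to 3040 CPM in WT to 83.1 to 251 CPM in KO. No marker of either list was at 0 in all libraries, and their part in the changes of the Notch genes was not tested.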

How the data were processed

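The deposited table holds read counts per gene for 6 libraries, which the authors had not normalised (whole numbers with unequal totals), and FPKM values deposited by the authors under the same column headers as the counts. The unit of the latter was taken from their values. Tools listed in the submitters' processing notes are featureCounts 1.5.0-p3, HISAT2 2.0.5 and DESeq2 1.16.1, with the build mm10. Their settings, the use of strand and the gene models are not stated there. The library total behind the FPKM was estimated from the counts and FPKM themselves, and lay within 500 reads of the summed counts. FPKM times length and this total gave back the count within 0.05 reads in all 60 values of the 10 genes. It did so in all but 4 of the 327192 values of the table (in Ctnnb1, Neurog2 and Fzd7). Libraries were grouped and numbered by their titles, and every pair differed by far more than sampling noise (lowest chi-square over its degrees of freedom 16.1).

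All 6 libraries entered 1 comparison of KO against WT with edgeR 4.0.16 (R 4.3.3): filterByExpr defaults, TMM, two-sided quasi-likelihood F test, Benjamini-Hochberg adjustment, threshold 0.05. The SE is the absolute log2 fold change divided by the square root of F. The procedure was also run on simulated counts with known changes and no outlying library, and its outcome is not used to back the calls. CPM is TMM-normalised, and log2 CPM used a prior count of 2. Alternatives were other scalings and filters, DESeq2 1.42.0, limma 3.58.1 (voom with quality weights, and log2 of FPKM plus 1 or 0.1 for genes with mean FPKM of at least 0.5) and leaving out each library. The named genes are the 10 genes, the called pathway genes, and the 3 genes of most alike pattern. Genes outside this rule (Hes1, Nrarp, Heyl, Adam10, Adam17, Mib1, Pofut1, Rbpj, Numb, Numbl, Notch4 and Dll4) were picked for their roles, with their values known. The members and all lists were chosen with earlier results of these data known. Promoter windows are from RefSeq.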

Additional observations from a re-analysis of the deposited data

How the results depend on the processing

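Of the 10 genes, 6 were called lower and 1 higher in the main edgeR fit. These counts were the same with RLE size factors, library totals, no filter, a minimum of 1 CPM in 3 libraries and DESeq2, while limma-voom with quality weights called 6 lower and 3 higher, and limma on log2(FPKM + 1) and log2(FPKM + 0.1) called 5 and 4 lower and 0 higher each. Leaving out each library gave 2 to 6 lower and 0 to 1 higher. Of the 52 other pathway genes 11 were called lower and 6 higher, 20 were called lower with limma-voom, and leaving out each library gave 4 to 18 lower (without WT 6 and WT 3) and 1 to 8 higher. The share called among all tested genes moved too, from 29% to 48.5% with limma-voom, 12.8% without WT 6 and 38.2% without WT 3. The cause was not tested. Lfng, which was not called in any fit, turned sign to 0.0153 with library totals, 0.0578 with log2(FPKM + 1), 0.0596 with log2(FPKM + 0.1), and lay between -0.284 and 0.172 when 1 library was left out, above 0 without WT 7 or KO 1. Among the scalings, library totals moved the median of all genes most, by 0.0602 on the log2 scale. No paired analysis was possible because the groups share only the number 3. With 3 libraries a group, a miss of the threshold does not show that a gene did not change.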
